A study of Homo sapiens with 8 samples.

Results

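The genes described here are 10 inhibitors, subunits and targets of the transcription factor NF-κB, namely NFKBIA, NFKBIE, TNFAIP3, NFKB1, NFKB2, RELB, CCL20, CXCL8, IER3 and BIRC3. All probe sets annotated with one of these symbols alone were taken, which gave 14 of the 54675 probe sets on the array, for 9 of the 10 genes. The expression of BIRC3 was not analysed here, and only its promoter enters the sequence counts. The genes were measured on Affymetrix U133 Plus 2.0 arrays in 2 prostate carcinoma lines, LNCaP and 22Rv1, with 1 array per line and treatment and 8 arrays in all. In each line, RNA came from cells kept in 10 mM caffeine for 4 hours and then in 2 μg/ml actinomycin D with 10 mM caffeine for another 4 hours, from cells given actinomycin D alone after the same caffeine step, from cells kept in caffeine for 4 hours, and from untreated cells. Caffeine was used to inhibit nonsense-mediated mRNA decay (NMD), and actinomycin D, which blocks transcription, to separate the loss of mRNA from its synthesis. Both groups given actinomycin D had been in caffeine before, and their cells were washed between the steps, so that the cells given actinomycin D alone were also released from caffeine.

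NF-κB is a dimer of Rel family proteins that is held in the cytoplasm by inhibitors of the IκB family. When a signal such as a cytokine activates the IκB kinases, the inhibitor is degraded, the dimer enters the nucleus and it turns on chemokine and survival genes together with the genes of its own inhibitors, which close the loop. mRNAs of many of these targets, chemokines above all, carry AU-rich elements and are short-lived.

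κB sites are the DNA elements that the dimer binds, and the promoters of the genes whose signals differed most are shown first, followed by those of 2 subunit genes whose main probe sets differed little. The RefSeq promoter table (GRCh38.p14) held a promoter for 7 of the 10 genes, 10 promoters in all, and the 250 bases before each start were searched on both strands. The 10-letter κB consensus matched in 7 of these 10 promoters, in 6 genes, against 5.21% of 35116 promoters in the table, and 3 genes had 2 or more matches in a promoter, against 0.635% of all promoters; BIRC3 is counted in both. The 9-letter variant GGAATTTCC matched 0.413% of all promoters, and it overlaps the consensus match in NFKB1 and in NFKBIA. Capitals mark matches to either motif in the 120 bases before the start. Positions count back from the start, with -1 for the base next to it.
TNFAIP3, chr6:137867139-137867258, plus strand: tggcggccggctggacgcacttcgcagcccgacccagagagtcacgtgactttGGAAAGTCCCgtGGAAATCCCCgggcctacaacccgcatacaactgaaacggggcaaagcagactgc
NFKBIA, chr14:35404750-35404869, minus strand: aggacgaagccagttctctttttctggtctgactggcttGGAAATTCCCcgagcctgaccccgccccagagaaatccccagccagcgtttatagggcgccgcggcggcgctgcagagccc
CCL20, chr2:227813722-227813841, plus strand: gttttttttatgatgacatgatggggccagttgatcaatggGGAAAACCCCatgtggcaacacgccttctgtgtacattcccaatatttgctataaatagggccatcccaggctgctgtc
CXCL8, chr4:73740449-73740568, plus strand: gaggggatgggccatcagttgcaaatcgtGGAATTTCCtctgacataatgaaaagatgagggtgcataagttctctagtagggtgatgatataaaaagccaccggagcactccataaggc
NFKB1, chr4:102501239-102501358, plus strand: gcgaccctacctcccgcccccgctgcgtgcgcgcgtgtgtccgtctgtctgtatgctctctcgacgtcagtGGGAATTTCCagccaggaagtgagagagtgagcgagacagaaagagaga
NFKB2, chr10:102394458-102394577, plus strand: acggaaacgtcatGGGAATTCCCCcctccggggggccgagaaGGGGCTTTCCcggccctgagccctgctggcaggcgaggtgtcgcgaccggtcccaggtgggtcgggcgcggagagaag
TNFAIP3 had consensus matches that began at -67 and -55, CCL20 had 1 that began at -79 and NFKBIA 1 that began at -81. CXCL8 had no consensus match in its 250 bases and the 9-letter variant at -91. The NFKB2 promoter shown has 3 matches, of which those that begin at -107 and -106 overlap. Other promoters of NFKB1 and NFKB2 are not shown. These are matches of letters only, and no binding was measured. The genes were listed as members of the NF-κB pathway, so the share with κB matches is no independent test.

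The deposited values are log2 signals normalized so that all arrays share one distribution. A signal is therefore a level relative to all other transcripts on that array, and it does not show a loss that every mRNA shares. Detection in a comparison required a signal of 4 or more on one of the 2 arrays, and 38.4% of probe sets reached 4 on each array. With 1 array per group, differences in a single line have no replicate check and no test, and a difference of 1 (log2), or 2-fold, was used to count genes. Genes with several probe sets are represented by the one with the highest mean signal. Both lines carried the markers of luminal prostate epithelium, with all 7 measured of 9 listed at 4 or more on all arrays, while all 5 measured leukocyte markers of 7 listed were below 4 on all 8 arrays (summed signal 11.54 to 11.64 in LNCaP and 11.61 to 11.98 in 22Rv1). Of 4 fibroblast markers, 2 were below 4 on all 8 arrays, and the summed signal was 13.34 to 17.64 in LNCaP and 17.33 to 20.39 in 22Rv1. The other 2 were detected: COL1A1 stood at 5.29 to 8.65 over all 8 arrays. DCN stood at 5.56 to 7.06 in 22Rv1 and at 2.27 to 4.19 in LNCaP.

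**Figure D1:**
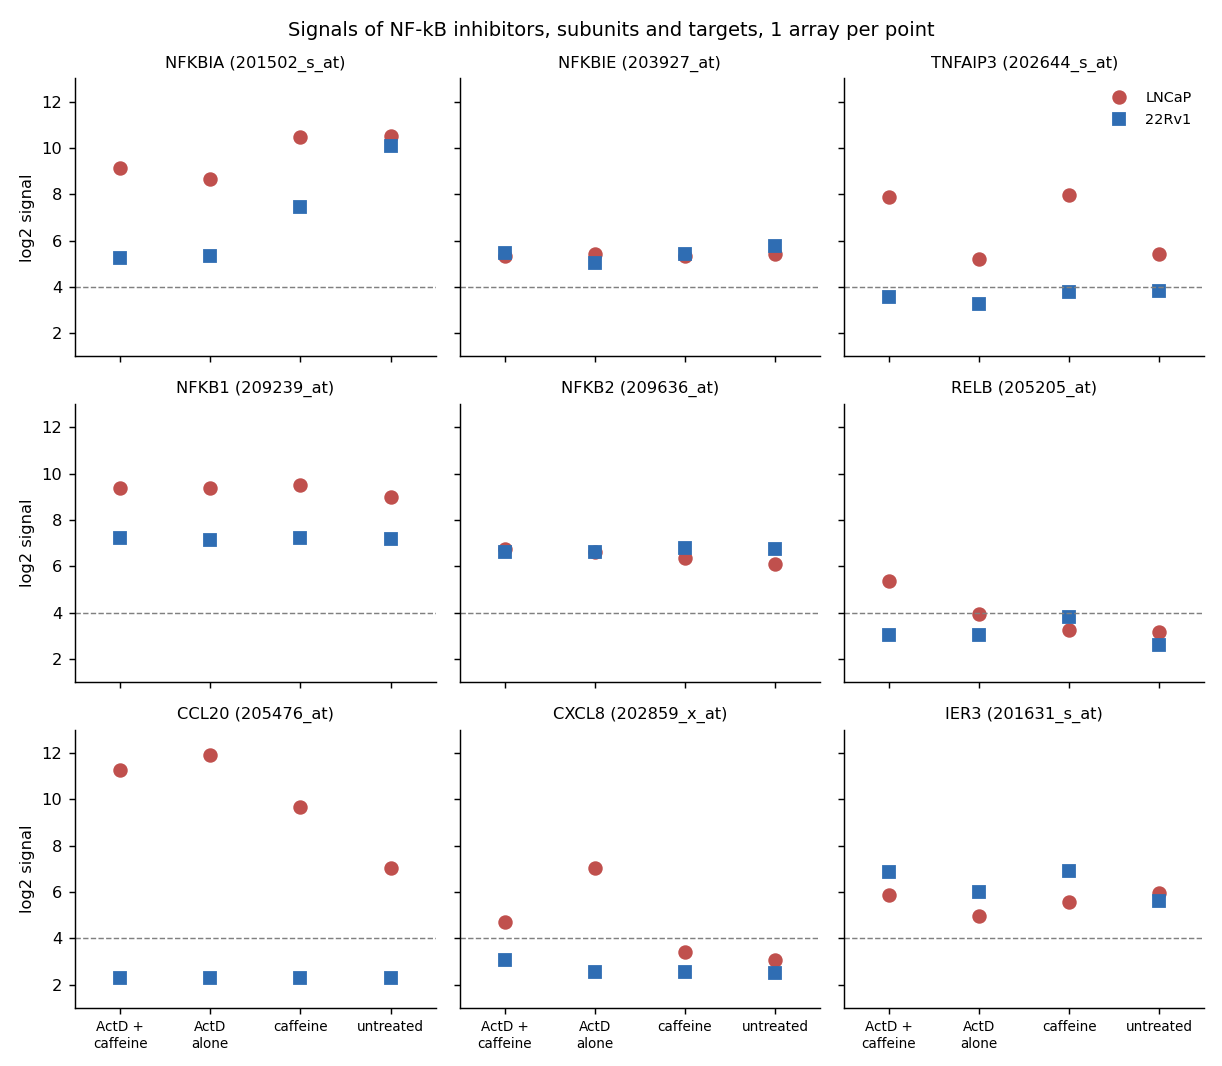
Log2 signal of the main probe set of each of the 9 genes (vertical axis) after actinomycin D with caffeine, after actinomycin D alone, after caffeine and in untreated cells (horizontal axis), with 1 array per point, LNCaP as circles and 22Rv1 as squares. The dashed line is the floor of 4; CCL20 lies at 2.27 on all 22Rv1 arrays and between 7.05 and 11.90 in LNCaP.

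NFKBIA encodes IκBα, the best-known inhibitor and itself a target of NF-κB, and its mRNA was abundant in both lines before treatment. Its signal (201502_s_at) in LNCaP was 9.15 after actinomycin D with caffeine, 8.65 after actinomycin D alone, 10.48 after caffeine and 10.50 in untreated cells. In 22Rv1 the signals were 5.25, 5.32, 7.45 and 10.09 in the same order. Caffeine left the LNCaP signal where it was, with a difference of -0.02 from untreated cells. In 22Rv1 the signal after caffeine was lower by 6.26-fold, a difference of -2.65, the 20th lowest of 10961 detected genes. Actinomycin D alone was followed by signals below those after caffeine in both lines, and the difference was -1.83 in LNCaP and -2.13 in 22Rv1. Keeping caffeine in the medium gave -1.33 in LNCaP and -2.19 in 22Rv1 against the caffeine step alone. In such bulk RNA, fewer cells that express a gene and less RNA per cell cannot be told apart. Degradation, the signal after actinomycin D with caffeine less that after actinomycin D alone, was 0.50 in LNCaP and -0.06 in 22Rv1. Its other probe set, 231699_at, stayed below 4 on all arrays.

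NFKBIE encodes IκBε, another cytoplasmic inhibitor. Its signals in LNCaP were 5.34, 5.42, 5.35 and 5.43, again from actinomycin D with caffeine to untreated, and in 22Rv1 they were 5.48, 5.01, 5.44 and 5.77. No difference reached 1 in any comparison, and the lowest 22Rv1 signal was the one after actinomycin D alone.

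TNFAIP3 encodes A20, a ubiquitin-editing enzyme that stops signalling upstream of the IκB kinases. In LNCaP its signal (202644_s_at) was 7.87 after actinomycin D with caffeine, 5.23 after actinomycin D alone, 7.95 after caffeine and 5.40 in untreated cells. The 22Rv1 signals were 3.58, 3.27, 3.78 and 3.82, all below the floor. The 2 LNCaP arrays whose cells were in caffeine when harvested were thus high, and the other 2 were low and close to each other. Accumulation, caffeine minus untreated, was 2.55 in LNCaP (5.85-fold, 17th of 10737 detected genes), and degradation was 2.65 (6.27-fold, 15th of 10700). Decay, actinomycin D alone minus caffeine, was -2.73, whereas with caffeine kept the difference was -0.08 (-1.27 when each array was scaled to equal signals of the poly-A control transcripts). The weaker probe set 202643_s_at was below the floor after actinomycin D alone and in untreated cells, and with signals under 4 set to 4 it gave 1.36 for accumulation, 1.03 for degradation, -1.36 for decay and -0.33 with caffeine kept. These comparisons share arrays: accumulation and decay both use the caffeine array, and degradation and decay both use the array of actinomycin D alone. The 18S rRNA control probe sets stood at 11.71 on the LNCaP array of actinomycin D with caffeine and between 4.09 and 6.25 on the other LNCaP arrays, and their part in these differences was not tested.

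NFKB1 encodes p105, the precursor of the p50 subunit. Its LNCaP signals were 9.38, 9.37, 9.49 and 8.98 from actinomycin D with caffeine to untreated, and its 22Rv1 signals were 7.20, 7.14, 7.20 and 7.16. Every LNCaP signal lay above every 22Rv1 signal, and the largest treatment difference was the LNCaP accumulation of 0.51.

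NFKB2 encodes p100, the precursor of p52, which also acts as an inhibitor. Its probe sets disagreed. The brighter one, 209636_at, gave LNCaP signals of 6.76, 6.61, 6.37 and 6.11 and 22Rv1 signals of 6.62, 6.62, 6.80 and 6.74. With 207535_s_at the LNCaP signals were 6.31, 7.30, 5.53 and 5.25, and the 22Rv1 signals were 5.98, 6.17, 5.69 and 6.70. In LNCaP decay was therefore 0.24 with one probe set and 1.77 with the other, and in 22Rv1 accumulation was 0.06 with one and -1.02 with the other. The third probe set, 211524_at, was below the floor throughout.

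RELB encodes the partner of p52 in the non-canonical pathway. Its LNCaP signal was 5.37 after actinomycin D with caffeine, 3.95 after actinomycin D alone, 3.23 after caffeine and 3.17 in untreated cells, and its 22Rv1 signals were 3.03, 3.03, 3.79 and 2.60. Only the first of these 8 arrays reached the floor, so the LNCaP degradation of 1.42 and the difference of 2.14 with caffeine kept rest on that array, the one with the high 18S signal. Both became 1.37 with signals under 4 set to 4.

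CCL20, a chemokine that draws CCR6-bearing immune cells, was expressed in LNCaP and not detected in 22Rv1. Its LNCaP signal was 11.28 after actinomycin D with caffeine, 11.90 after actinomycin D alone, 9.67 after caffeine and 7.05 in untreated cells. All 4 signals in 22Rv1 were 2.27. In LNCaP accumulation was 2.63 (6.17-fold, 14th of 10737 detected genes), decay was 2.22 and the difference with caffeine kept was 1.61. The signals after actinomycin D thus stood above that after caffeine, with caffeine or without it, and degradation was -0.61.

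CXCL8 encodes interleukin-8, which draws neutrophils. In LNCaP its signal (202859_x_at) was 4.72 after actinomycin D with caffeine, 7.04 after actinomycin D alone, 3.39 after caffeine and 3.07 in untreated cells. The 22Rv1 signals were 3.06, 2.53, 2.53 and 2.51, all below the floor. The suffix x of this probe set marks probes that may also bind other transcripts. The other probe set, 211506_s_at, gave 3.22, 6.72, 3.14 and 3.11 in LNCaP and stayed between 3.10 and 3.12 in 22Rv1. Both probe sets were highest on the LNCaP array of actinomycin D alone. Decay was 3.65 and 3.58 with these probe sets, and 3.04 and 2.72 with signals under 4 set to 4. Degradation was -2.32 and -3.50, so that of the 2 groups given actinomycin D the one with caffeine had the lower signal. The difference of 1.33 with caffeine kept was seen with the main probe set alone and became 0.72 with signals under 4 set to 4.

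IER3, an early-response gene linked to cell survival, was detected on all arrays. Its LNCaP signals were 5.86, 4.96, 5.55 and 5.94 from actinomycin D with caffeine to untreated, and its 22Rv1 signals were 6.87, 6.01, 6.92 and 5.59. Accumulation was -0.38 in LNCaP and 1.33 in 22Rv1. In both lines the array of actinomycin D with caffeine was higher than that of actinomycin D alone, by 0.91 in LNCaP and by 0.86 in 22Rv1.

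Set against all detected genes, the caffeine comparison in LNCaP had 2 of 7 detected genes of the list higher by 1 or more (TNFAIP3 and CCL20), against 5.19% of all detected genes, and 0 lower, against 3.70%. In 22Rv1 it had 1 of 5 higher (IER3), against 8.41%, and 1 lower (NFKBIA), against 6.12%. The median of the list was 0.26 in LNCaP and 0.04 in 22Rv1, where the medians of all detected genes were -0.02 and -0.02. For degradation, LNCaP had 2 of 9 genes higher (TNFAIP3 and RELB), against 5.32%, and 1 lower (CXCL8), against 3.17%. RELB counted as detected there only through the array of actinomycin D with caffeine, on which it was high. None of the 5 detected in 22Rv1 differed by 1 in degradation, against 3.16% higher and 1.21% lower among all genes.

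For decay, LNCaP had 2 of 8 genes higher (CCL20 and CXCL8), against 4.67%, and 2 lower (TNFAIP3 and NFKBIA), against 11.9%. CXCL8 counted as detected there only through the array of actinomycin D alone, on which it was high. In 22Rv1 none of 5 was higher, against 3.16%, and 1 was lower (NFKBIA), against 10.5%. With caffeine kept through the second step, 3 of 9 were higher in LNCaP (CCL20, RELB and CXCL8), against 4.69%, and 1 was lower (NFKBIA), against 8.54%. RELB and CXCL8 counted as detected there only through the array on which they were high. With signals under 4 set to 4, the count higher was 2. In 22Rv1 the same comparison had 0 of 5 higher, against 1.93%, and 1 lower (NFKBIA), against 7.14%. Genes of the list went in opposite directions in LNCaP, and its median in decay was -0.03 there and -0.42 in 22Rv1, where all detected genes had -0.09 and 0.03.

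**Figure D2:**
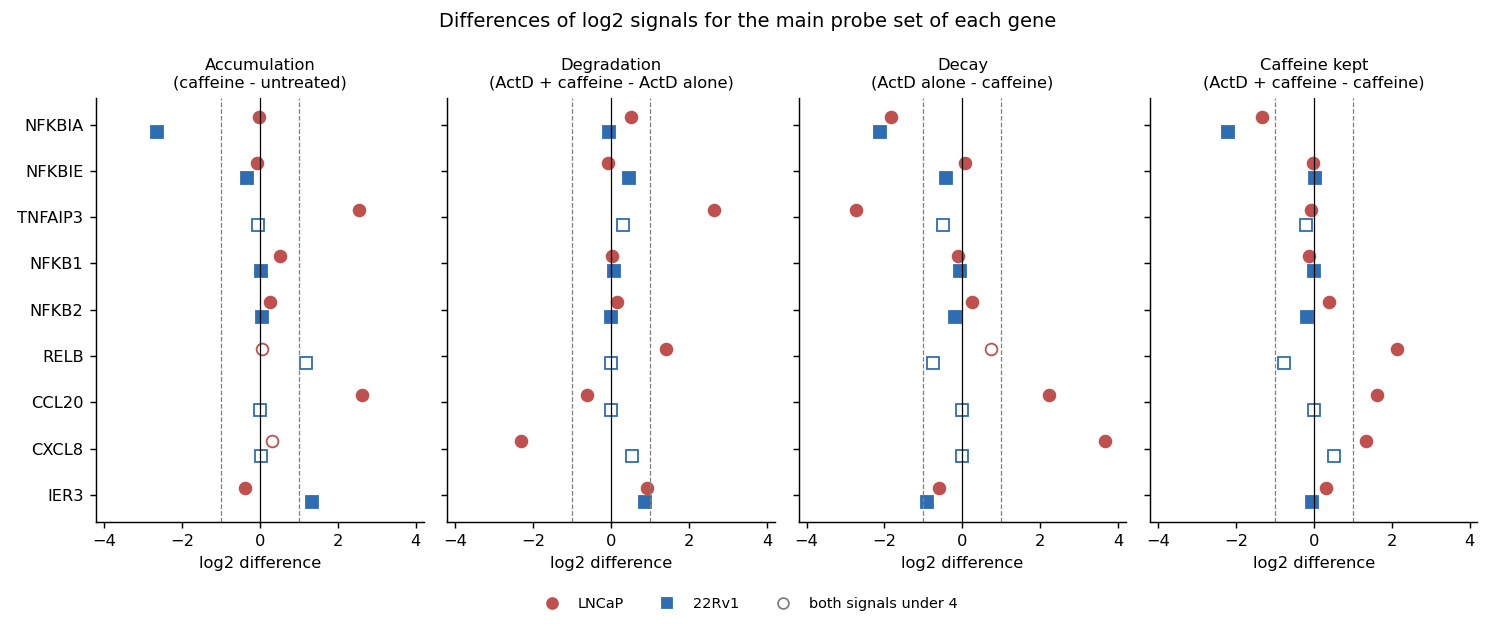
Differences of log2 signals (horizontal axes) in the 4 comparisons for the main probe set of each of the 9 genes (vertical axis), with LNCaP as circles above 22Rv1 as squares and open symbols where both signals were under 4. Dashed lines mark a difference of 1 in either direction; TNFAIP3 in LNCaP has 2.55, 2.65 and -2.73 in the first 3 panels and -0.08 in the last.

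A response shared by the lines was tested by limma, in which LNCaP and 22Rv1 served as the replicates of a treatment, with p-values adjusted over all 21453 probe sets with a mean signal of at least 4. Of the 14 probe sets, 8 entered this test. CXCL8, RELB and 202643_s_at of TNFAIP3 were too low for it. None of the 8 passed in accumulation, where 0.0466% of all probe sets did, in degradation (0.00%), in decay (2.34%) or with caffeine kept (0.00%). At an unadjusted p under 0.05 the counts were 0, 0, 1 and 0, the 1 being NFKBIA in decay. NFKBIA averaged -1.98 ± 0.80 over both lines in decay (SE, limma adjusted p = 0.227, lower in 2 of 2 lines). TNFAIP3 and CCL20 entered the test only through LNCaP, since both were below 4 on all 22Rv1 arrays. No average over the lines is read for them as a shared response. Whether the lines respond differently cannot be tested, because a term for it leaves no residual degrees of freedom.

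The comparisons that involve actinomycin D depend on the scale. The 22 poly-A control probe sets, which report bacterial transcripts of the kind spiked into RNA samples before labelling, averaged 7.64 and 8.04 in LNCaP after actinomycin D with caffeine and alone, against 6.45 after caffeine. In 22Rv1 they averaged 7.84 and 8.26, against 7.08. All 22 were higher after actinomycin D alone than after caffeine, by 1.59 on average in LNCaP and by 1.18 in 22Rv1. With each array scaled to equal poly-A signals, the LNCaP decay of CXCL8 was 2.07 and that of CCL20 0.64, while TNFAIP3 had -4.31 and NFKBIA -3.42. With caffeine kept, the scaled LNCaP differences were 0.42 for CCL20, 0.14 for CXCL8, 0.95 for RELB, -1.27 for TNFAIP3 and -2.52 for NFKBIA. CXCL8 and RELB were below the floor after caffeine in LNCaP. With signals under 4 set to 4, they differed by 0.72 and 1.37 with caffeine kept, against a shift of 1.19 that this scaling subtracts. The decay of CXCL8 was then 3.04, against a shift of 1.59. On this scale limma called 6 of the 8 probe sets lower in decay, where 82.0% of all probe sets were, and 4 lower with caffeine kept, where 49.3% of all were. The 6 include 202644_s_at of TNFAIP3, which was under the floor on all 22Rv1 arrays and has no measured fall there. The 18 hybridization control probe sets, another set of controls, also differed from the caffeine array. After actinomycin D alone they were higher by 0.62 on average in LNCaP and by 0.08 in 22Rv1. With caffeine kept they were higher by 0.50 and 0.25. Whether the amount of mRNA or the amount of control RNA differed was not tested, and neither was the part of hybridization.

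**Figure D3:**
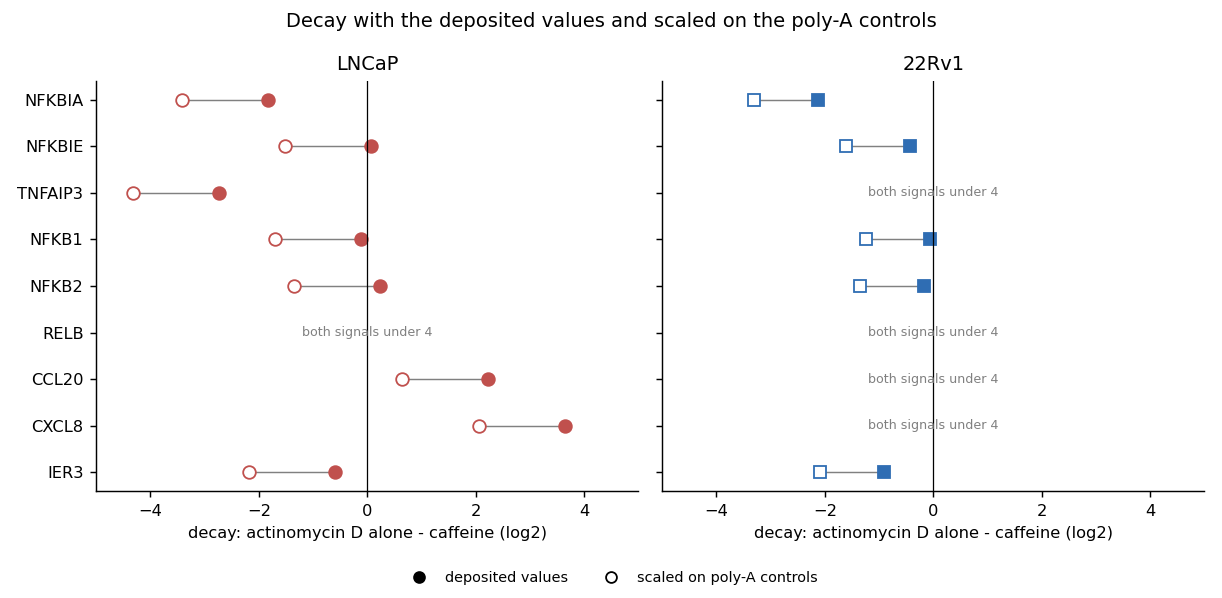
Decay, the log2 signal after actinomycin D alone minus that after caffeine (horizontal axes), for the 9 genes (vertical axis) in LNCaP on the left and 22Rv1 on the right, with the deposited values as filled symbols and values scaled on the poly-A controls as open ones. On both scales CXCL8 (3.65 and 2.07) and CCL20 (2.22 and 0.64) lie above 0 in LNCaP, and TNFAIP3 (-2.73 and -4.31) and NFKBIA (-1.83 and -3.42) lie below it. The CXCL8 signal after caffeine was under the floor of 4.

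Untreated LNCaP and 22Rv1 cells differed in 3 of the 7 genes detected. NFKB1 was higher in LNCaP by 1.82. CCL20 and TNFAIP3 were below the floor in untreated 22Rv1 cells, and with signals under 4 set to 4 they were higher in LNCaP by at least 3.05 and 1.40 (log2). None was lower by 1 with its main probe set. Among all genes detected in either, 19.5% were higher and 18.5% lower in LNCaP by 1 or more, so differences of this size between the lines were common. The second NFKB2 probe set, 207535_s_at, was lower in LNCaP (-1.46). NFKBIA was similar before treatment, at 10.50 in LNCaP and 10.09 in 22Rv1, and the lines parted with treatment: LNCaP minus 22Rv1 was 3.03 after caffeine, 3.33 after actinomycin D alone and 3.90 after actinomycin D with caffeine.

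The signal patterns most like that of TNFAIP3 over the 8 arrays, among 21251 probe sets, were those of TTC23, ZSCAN12 and SUV39H1 (Pearson r = 0.979, 0.978 and 0.976). TNFAIP3, ZSCAN12 and SUV39H1 were all under the floor on every 22Rv1 array, so these correlations include the contrast between the lines. TTC23 changed little with caffeine in LNCaP, at 6.59 against 6.06 in untreated cells. The patterns most like that of NFKBIA were those of FAM83D, RSBN1 and HNRNPF (r = 0.988, 0.986 and 0.986). FAM83D, for instance, had LNCaP signals of 9.67, 9.14, 10.49 and 10.53 and 22Rv1 signals of 6.29, 6.53, 7.86 and 9.57. The 8 points of each correlation come from 2 cell lines and share one normalization, and such values are the highest among many.

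Other genes of the pathway were read from 5 lists of 84 genes, of which 78 were measured and 48 to 51 detected in a comparison. Among receptors, ligands and adaptors, TNF, LTA, IL1A and IL1B, the cytokines that most often start the response, were below 4 on all 8 arrays. After caffeine, 3 genes of the lists were higher and 1 lower by 1 or more in LNCaP, and 8 were higher and 2 lower in 22Rv1. Among all detected genes 5.19% were higher and 3.70% lower in LNCaP, and 8.41% and 6.12% in 22Rv1. Those higher in both lines were NFKBIZ, OTULIN and CFLAR. NFKBIZ encodes the nuclear IκB family protein IκBζ (2.29 in LNCaP and 3.55 in 22Rv1). OTULIN removes linear ubiquitin chains (1.46 and 1.83), and CFLAR blocks caspase-8 activation (1.29 and 2.94). A second NFKBIZ probe set, 223217_s_at, gave 2.67 in 22Rv1 but was under 4 on both LNCaP arrays, and 235427_at of CFLAR gave 0.84 in LNCaP and -0.78 in 22Rv1. For OTULIN, 228382_at gave -0.42 in LNCaP and was under 4 on both 22Rv1 arrays.

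In the degradation comparison, 4 genes of the lists were higher and 2 lower in LNCaP, and 2 higher and 1 lower in 22Rv1, against 5.32% higher and 3.17% lower of all genes in LNCaP and 3.16% and 1.21% in 22Rv1. MAP3K14, the NF-κB-inducing kinase of the non-canonical pathway, was higher in both, by 1.99 and 1.93. In decay, 6 were higher and 7 lower in LNCaP, and 1 higher and 6 lower in 22Rv1, against 4.67% higher and 11.9% lower of all genes in LNCaP and 3.16% and 10.5% in 22Rv1. Lower in both lines were MAP3K14 (-2.31 in LNCaP and -3.21 in 22Rv1), the stress gene GADD45B (-1.68 and -2.64), ZFP36L2, which binds AU-rich elements (-1.21 and -1.70), and the TNF receptor gene TNFRSF1A (-1.18 and -1.45). The probe sets of ZFP36L2 disagreed, and 201369_s_at gave 0.06 in LNCaP and -0.50 in 22Rv1. ZFP36, which also binds AU-rich elements, was lower in both lines too (-1.10 and -3.06). With caffeine kept, 5 were higher and 0 lower in LNCaP, and 1 was higher and 9 lower in 22Rv1, against 4.69% higher and 8.54% lower of all genes in LNCaP and 1.93% and 7.14% in 22Rv1. REL, the gene of the subunit c-Rel, was higher in both there with its main probe set, by 1.42 and 1.06. Other REL probe sets disagreed. In LNCaP and 22Rv1, 228812_at gave 0.03 and -0.57, and 206036_s_at gave -1.02 and 0.33 with signals under 4 set to 4. On the poly-A scale the main probe set gave 0.23 and 0.29.

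Of 48 list genes tested with limma, 3 passed in decay, where 2.34% of all probe sets did, and none in the other comparisons. Each went the same way in both lines. MAP3K14 fell by 2.76 on average (SE 0.29, limma adjusted p = 0.0264) and GADD45B fell by 2.16 (SE 0.31, limma adjusted p = 0.0367). That GADD45B value is from 209304_x_at. Its probe sets 207574_s_at and 209305_s_at gave -2.99 and -1.98 and did not pass (limma adjusted p = 0.0606 and 0.0610). REL rose by 1.54 (SE 0.25, limma adjusted p = 0.0453) with its main probe set, 235242_at, whereas 228812_at gave -0.65 and 206036_s_at 0.09, neither of which passed. On the poly-A scale the REL difference was 0.16 (limma adjusted p = 0.641), and over all alternatives its limma adjusted p lay between 0.0280 and 0.641. GADD45B and REL lost the call whichever of the 8 arrays was left out, and MAP3K14 kept it only when an untreated array was the one left out. All 3 also lost it with no cell line block, with no filter and with only the 4 arrays compared.

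**Figure D4:**
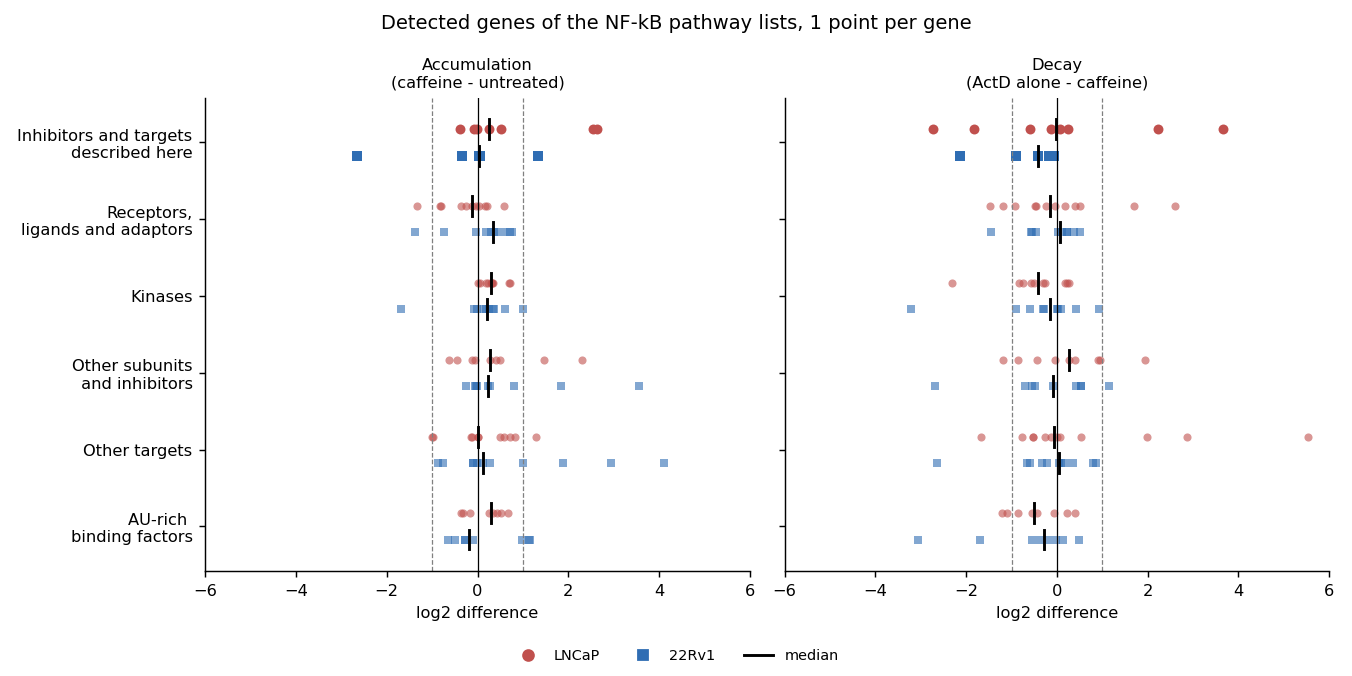
Differences of log2 signals (horizontal axes) for accumulation on the left and decay on the right, with 1 point per detected gene in each list (vertical axis), LNCaP as circles above 22Rv1 as squares and black bars for medians. Dashed lines mark a difference of 1; in decay, the far right points in LNCaP are CXCL8 among the genes described here (3.65) and CXCL10 among the other targets (5.53).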

How the data were processed

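Per the labels, total RNA of LNCaP and 22Rv1 cells was labelled and hybridized to Affymetrix U133 Plus 2.0 arrays. The authors ran gcRMA, with background correction, quantile normalization of the 8 arrays together and 1 summary value per probe set, and deposited the resulting log2 signals. RMA and GCRMA are named in the submitters' processing notes, and versions are not given in the sources used here. The number of arrays, 1 per line and treatment, limits the precision.

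Of 54675 probe sets, 41097 have 1 gene symbol in the platform annotation and 1801 have several. The probe set with the highest mean stands for a gene. The detection floor was 4, and genes were counted past a difference of 1. limma 3.58.1 in R 4.3.3 was fitted with terms for treatment and cell line to the 21453 probe sets whose mean was 4 or more (3 residual degrees of freedom, prior 2.93), with Benjamini-Hochberg adjustment, and the fit was tested on simulated data. The p-values rest on how far treatment differences vary between the 2 lines, not on the spread between repeats of a line. Pathway genes were named where they passed 1 in the same direction in both lines, at most 4 per comparison by the smaller difference. ZFP36 was added to these in decay. For likeness the 3 highest correlations were taken. The genes, lists and tests were chosen with earlier results of these data known. The alternatives were other cut-offs, filters and variance priors, no cell line block, fewer arrays, signals under 4 set to 4, a mean over every probe set of a gene, and scaling on the 22 poly-A probe sets. The rest used python 3.11.15, numpy 2.4.6 and pandas 2.3.3, with matplotlib 3.10.9 for drawing.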

Additional observations from a re-analysis of the deposited data

Results flagged for a closer look

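IER3 and 1 of the NFKB2 probe sets went in opposite directions after caffeine in the 2 lines. IER3 differed from untreated cells by -0.38 in LNCaP and by 1.33 in 22Rv1. NFKB2 with 207535_s_at differed by 0.29 in LNCaP and by -1.02 in 22Rv1, and its brighter probe set gave 0.26 and 0.06. Each value rests on a single pair of arrays, and whether the lines differ was not tested.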

How the results depend on the processing

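With scaling on the poly-A controls, limma called 6 probe sets of the listed genes in decay and 4 with caffeine kept, against 0 and 0 with the deposited values. The 6 include TNFAIP3, which was not detected in 22Rv1. This scaling subtracts one value per array, and it moved the median estimate of all probe sets in decay to -1.34, against 0.05. In single lines it gave 6 genes lower in decay and 4 lower with caffeine kept in LNCaP, and in 22Rv1 5 lower in decay and 1 higher in degradation. The scaling lowers the decay of every gene by 1.59 in LNCaP and by 1.18 in 22Rv1. Of the genes higher in LNCaP it left 1 in decay and 0 with caffeine kept. With a mean over every probe set of a gene, 1 gene was lower in decay and 0 with caffeine kept in LNCaP, because the NFKBIA mean includes a probe set below the floor. A cut-off of 0.5 gave 1 gene higher in degradation and 2 lower in decay in 22Rv1, and 2 lower in degradation in LNCaP. The share of all genes was not taken in these settings, so these single-line counts are not read as results about the listed genes. The average over both lines reversed for CCL20 in decay on the poly-A scale (-0.27, against 1.11), but not through a measured change. In 22Rv1, where CCL20 was not detected, the scaled value of -1.18 is the shift of the scaling alone. In LNCaP its decay stayed above 0, at 0.64 against 2.22. Leaving out 1 array at a time gave averages of -2.84 to 0.17 for NFKBIA in accumulation, reversed without untreated 22Rv1. CCL20 was not detected in 22Rv1, so its averages say nothing of a shared response; they were -0.64 to 3.27 in accumulation, reversed without untreated LNCaP, and -0.17 to 2.39 in decay, reversed without the LNCaP array of actinomycin D alone. The counts of genes past 1 in single lines did not move by over 1.5 times with the cut-off of 1.3 or with signals under 4 set to 4. The limma calls among the listed genes stayed at 0 with other variance priors and filters, signals under 4 set to 4, no cell line block, only the arrays compared, and each array left out. The cell line block pairs the arrays by line. The alternatives for MAP3K14, GADD45B and REL, and those for counts lower in accumulation and degradation and higher in decay and with caffeine kept, were chosen after seeing the data. Signals under 4 on all 22Rv1 arrays leave TNFAIP3, CCL20, CXCL8 and RELB without a measured response there.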

Other observations

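Of 8 other chemokine genes in the lists, 6 were below 4 on all 8 arrays. The remaining 2, CXCL10 and CCL2, and TLR3 had higher LNCaP signals after actinomycin D than after caffeine, as CCL20 and CXCL8 did. These genes and PTGS2 were picked after their values were seen. CXCL10, which draws activated T cells, had LNCaP signals of 5.99 after actinomycin D with caffeine, 7.99 after actinomycin D alone, 2.46 after caffeine and 2.36 in untreated cells, and was below 4 on all 22Rv1 arrays. CCL2, which draws monocytes, had LNCaP signals of 10.20, 10.52, 7.65 and 7.14 in the same order, against at most 3.35 in 22Rv1. TLR3, a sensor of double-stranded RNA, had LNCaP signals of 5.29, 5.64, 3.04 and 2.39 and was below 4 in 22Rv1. On the poly-A scale the LNCaP decay of CCL2 was 1.28. CXCL10 and TLR3 were below the floor after caffeine, and with signals under 4 set to 4 their decay was 3.99 and 1.64, against a shift of 1.59 that this scaling subtracts. No array of either line was repeated, so these differences have no test.

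PTGS2, the cyclooxygenase-2 gene, was detected only in treated 22Rv1 cells, with signals of 5.60 after actinomycin D with caffeine, 6.05 after actinomycin D alone, 6.72 after caffeine and 2.60 in untreated cells. With signals under 4 set to 4 its accumulation was 2.72. In LNCaP it was below 4 on all arrays. These values are from 204748_at, and the other PTGS2 probe set, 1554997_a_at, was below 4 on all arrays of both lines.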
